A study of Mus musculus with 6 samples.

Results

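Galectins are small proteins that bind galactose-containing sugars through a conserved carbohydrate-recognition domain. They are made in the cytosol, and many leave the cell and crosslink glycoproteins at its surface. In T cells, galectins bound from outside are known for clustering or restraining receptors and, for some members, for promoting cell death, while inside the cell several of them mark damaged vesicles. This account describes 5 genes, chosen by their symbols among the 55487 genes in each expression table: Lgals1, Lgals3, Lgals8 and Lgals9, which encode galectins 1, 3, 8 and 9, and Lgals3bp, which encodes a secreted glycoprotein that galectins bind and that is not itself a galectin. The genes were listed by name with the itaconate and control values of these libraries already known. Their differences between the groups are therefore given as a description, with no test, and the whole-table calls on them are not independent evidence.

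The libraries were RNA-seq of CD8+ T cells, or cytotoxic T lymphocytes, of C57BL/6 mice. Of the 6 libraries, 3 came from cells given itaconate at 5 mM for 48 h and 3 from control cells given NaCl instead. Itaconate is a metabolite that macrophages produce from the citric acid cycle once activated. No genotype other than the strain, and no age, purification, activating stimulus or pooling of animals, is stated in the labels used here, and they do not give the source of each replicate, such as its own mouse or culture. Any p-value below therefore reflects variation among libraries that could be technical alone.

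Expected counts, the authors' estimates of reads per gene, summed to between 18280217 and 31643408 per library. The T cell and CD8 genes Cd3d, Cd3e, Cd3g, Cd8a, Cd8b1 and Trac together stood at 1396 to 1482 CPM (counts scaled to a common library total with TMM factors) in control and at 1626 to 1634 CPM in itaconate libraries, so transcripts of the labelled cell type were present in every library. Cd8a was the only gene of these 6 that passed the test, at a log2 fold change of 0.38 ± 0.049 (SE; edgeR adjusted p 0.000297). Of all genes tested, 12.0% passed. In bulk RNA, a smaller number of cells of a type and less RNA per cell cannot be told apart.

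The galectins share a sugar-binding core in which a histidine, an asparagine and an arginine contact the galactose. The coding sequence of this core, 45 bases read from GENCODE M21 transcripts (mouse genome GRCm38) 5′ to 3′ on the coding strand, is shown because it is what makes these genes a family, and its copy number separates them. Capitals mark the codons of the conserved histidine, asparagine and arginine.
Lgals1, in exon 3, chr15:78929661-78929705, plus strand: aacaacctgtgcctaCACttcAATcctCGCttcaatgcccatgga
Lgals3, in exon 5, chr14:47384627-47384671, plus strand: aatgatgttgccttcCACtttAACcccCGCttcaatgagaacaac
Lgals8, first copy, in exon 4, chr13:12454858-12454902, minus strand: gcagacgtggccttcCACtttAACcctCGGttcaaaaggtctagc
Lgals8, second copy, in exon 9, chr13:12447237-12447281, minus strand: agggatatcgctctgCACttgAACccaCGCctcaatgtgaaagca
Lgals9, first copy, in exon 3, chr11:78973111-78973155, minus strand: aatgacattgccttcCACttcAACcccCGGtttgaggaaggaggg
Lgals9, second copy, in exon 9, chr11:78965785-78965829, minus strand: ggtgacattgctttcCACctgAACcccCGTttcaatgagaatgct
Lgals1 and Lgals3 held 1 copy of the core each, and Lgals8 and Lgals9, the tandem-repeat galectins, held 2 each. Lgals3bp held 0 copies in its longest reading frame. Between these windows, 51.1% of bases were identical for the pair of copies within Lgals8, the lowest value, and 73.3% for Lgals3 and the second copy of Lgals9, the highest.

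The family resemblance did not extend to shared windows of 50 bases, a length set for this comparison, in the main transcripts. Of all windows of 50 bases in the main transcripts of Lgals1, Lgals3, Lgals3bp and Lgals9, none occurred in an annotated transcript of another gene on either strand. Of the 2743 such windows in Lgals8, 148 (5.4%) did, in Heatr1 and in the predicted gene AC107765.2. Lgals8 (ENSMUSG00000057554, chromosome 13, 12439415 to 12464944, minus strand) overlaps Heatr1, which lies on the plus strand and encodes a protein of ribosome biogenesis, over 155 exonic bases (12440135 to 12440289). The strand setting of the authors' counting is not given in the sources used here, so reads from that stretch could belong to either gene. Expected counts of both genes were whole numbers except in itaconate replicate 1, at 197.12 for Lgals8 and 4219.88 for Heatr1. The pseudogenes Lgals1-ps1 and Lgals1-ps2 were listed at 0 counts in all 6 libraries.

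Levels can be compared between genes as TPM, the authors' transcript abundance, which is divided by transcript length. In control libraries Lgals1 was the most abundant member at 400.5 ± 25.7 TPM (mean ± SD, n = 3). Its mean TPM over all 6 libraries was above that of 97.5% of the genes tested. Lgals9 followed at 81.2 ± 6.49 TPM and Lgals3bp at 51.4 ± 3.44 TPM. Lgals3 stood at 7.45 ± 0.935 TPM and Lgals8 at 6.82 ± 1.41 TPM, and their ranges over the control libraries overlapped. In itaconate libraries the order of Lgals1 (499.9 ± 38.8 TPM), Lgals9 (83.8 ± 2.56 TPM) and Lgals3bp (40.6 ± 3.6 TPM) was as in control. Lgals3, at 24.6 ± 4.23 TPM, then lay above Lgals8, at 6.2 ± 0.647 TPM, with no overlap. The ratio of Lgals3 to Lgals8 in TPM was, in replicate order, 0.855, 0.974 and 1.61 without itaconate and 3.18, 3.81 and 5.03 with it.

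**Figure D1:**
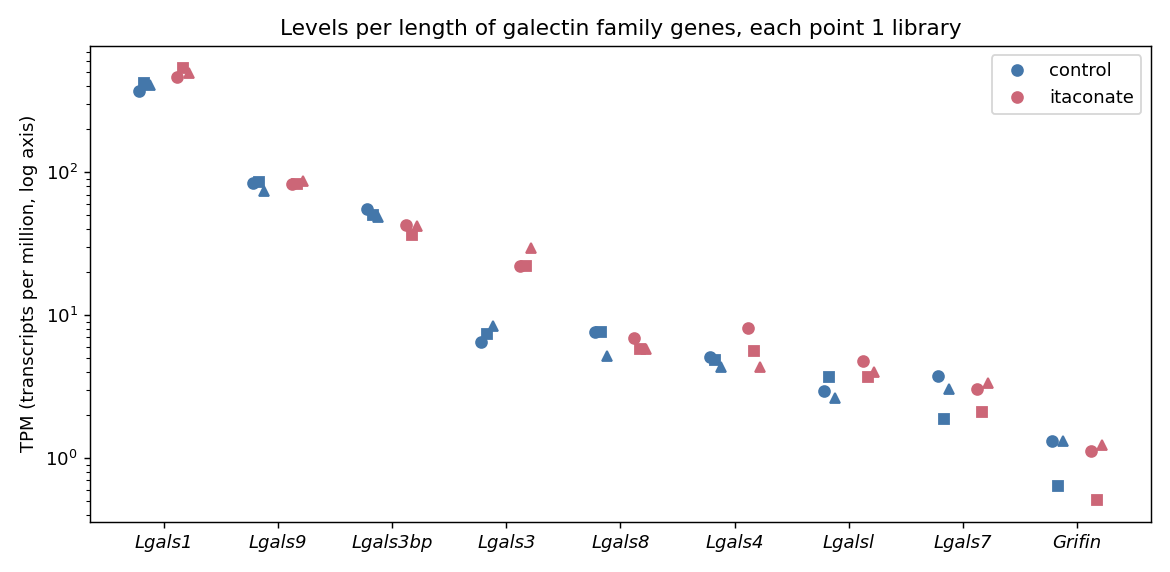
TPM (log axis) of 9 galectin family genes and relatives; each point is 1 library, with control in blue, itaconate in red, and circle, square and triangle for replicates 1, 2 and 3. Lgals1 lies far above the rest, and the Lgals3 points of itaconate libraries (22.1 to 29.43 TPM) lie apart from those of control libraries (6.52 to 8.39 TPM).

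The summed level of the 8 galectin genes in the tables (Lgals1, 2, 3, 4, 7, 8, 9 and 12) was 478.8, 530.1 and 502.2 TPM in the control libraries and 586.7, 659.0 and 624.2 TPM in the itaconate libraries. Without itaconate Lgals1 made up 79.5% ± 1.7 of that sum and with it 80.1% ± 1.7 (SD, n = 3). The share of Lgals3 was 1.48% ± 0.169 in control and 3.94% ± 0.696 in itaconate libraries, and that of Lgals9 was 16.1% ± 1.4 and 13.5% ± 0.839. Shares of 1 sum are not independent of each other.

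Of the 5 genes, all passed the filter on low counts. The fit across all 12350 genes tested (edgeR quasi-likelihood test, Benjamini-Hochberg adjusted p under 0.05) called 2 of them higher with itaconate, Lgals3 and Lgals1, and 1 lower, Lgals3bp. It called 12.0% of all genes, 6.68% higher and 5.36% lower. Control and itaconate CPM were fully apart for 3 of the 5 genes and for 31.2% of all genes tested. Since the genes were listed with these values known, nothing is read from the comparison of those shares.

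**Figure D2:**
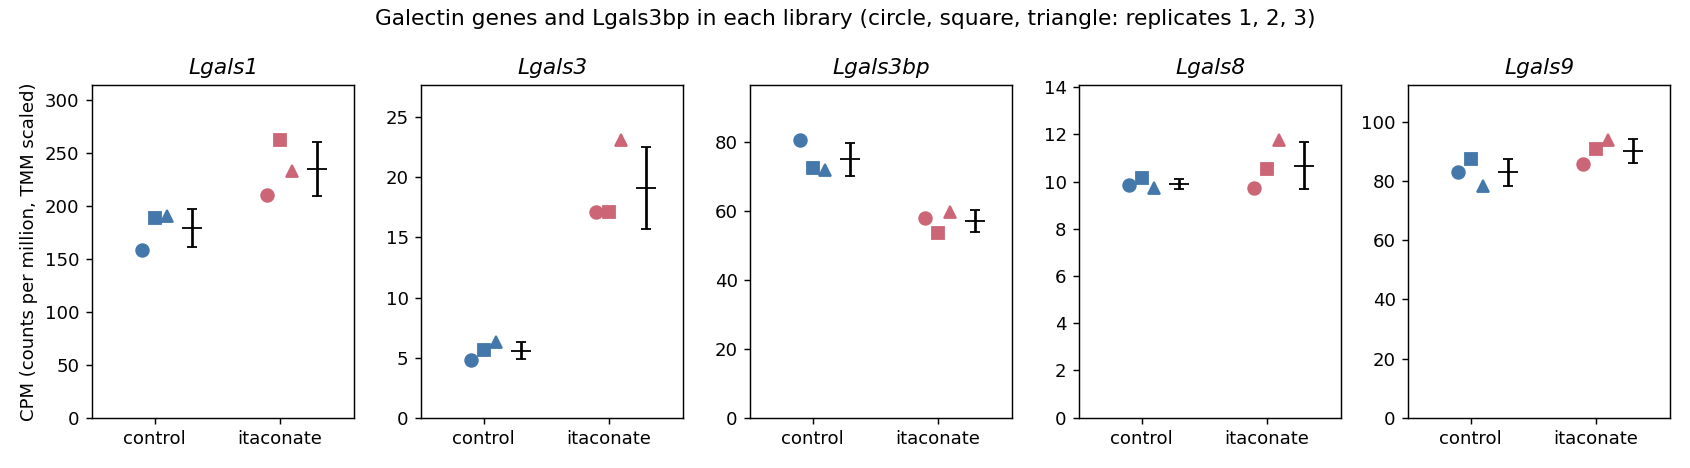
CPM of each of the 5 genes in control (blue) and itaconate (red) libraries, from 0 on each axis; symbols are single libraries and black bars the mean and SD of 3. The groups are apart for Lgals1, Lgals3 and Lgals3bp and overlap for Lgals8 and Lgals9.

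Lgals3 (ENSMUSG00000050335, chromosome 14, 47367751 to 47386160, plus strand, protein-coding) encodes galectin-3, the galectin with a single sugar-binding domain behind a flexible tail through which it self-associates. In replicate order, the control libraries held 4.83, 5.65 and 6.29 CPM and the itaconate libraries 17.12, 17.15 and 23.08 CPM. Every itaconate library lay above every control library, and itaconate replicate 3 was the highest of all. The fitted log2 fold change was 1.77 ± 0.14 (SE), a 3.42-fold difference, which ranked 31 from the highest among the 12350 genes. Without any 1 library the log2 fold change lay between 1.61 and 1.87. The counts behind these values were 130, 117 and 198 in control and 346, 309 and 538 in itaconate libraries.

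Galectin-3 is abundant in macrophages, so macrophage and monocyte markers are given beside it. The summed level of 15 such markers was 8.65, 9.04 and 10.5 CPM in the control libraries and 10.4, 6.1 and 14.1 CPM in the itaconate libraries, so the groups overlapped. Of the 4 markers that could be tested, edgeR called 0, beside 12.0% of all genes tested. An unadjusted p under 0.05 was reached by 0 of the 4, and the share of all genes at that threshold is not given here. With only 4 genes, nothing is read from these counts. Itaconate replicate 2, with the lowest marker sum, had 17.15 CPM of Lgals3. The list was led by Mpeg1, a pore-forming protein, at 5.93 ± 0.26 and 5.49 ± 3 CPM (SD, n = 3), with 5.64 to 6.14 CPM in control and 2.22 to 8.11 CPM in itaconate libraries. Cd68 followed at 1.24 ± 0.38 and 1.5 ± 0.53 CPM and Cybb at 1.22 ± 0.47 and 0.916 ± 0.54 CPM. Adgre1, Csf1r, Cd14 and C1qa, picked from the list as defining markers, stood at 0 to 0.247 CPM in every library. Lyz2, the lysozyme of myeloid cells, stood at 0.186, 0.435 and 0.667 CPM in control and at 1.68, 0.111 and 2.02 CPM in itaconate libraries. Itaconate replicate 3 was the highest library for Lgals3, Lyz2 and the marker sum, and the part of these cells in the Lgals3 level was not tested.

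Lgals1 (ENSMUSG00000068220, chromosome 15, 78926725 to 78930465, plus strand, protein-coding) encodes galectin-1, a small galectin that acts as a dimer and that activated T cells are known to make. In replicate order, its CPM were 158.3, 188.9 and 190.1 in the control group and 210.7, 261.9 and 232.9 in the itaconate group. The groups did not overlap, but the gap between the highest control and the lowest itaconate library was small beside the spread within the itaconate group. The log2 fold change was 0.39 ± 0.097 (SE), a 1.31-fold difference. In absolute terms, on the TPM scale, Lgals1 differed by more than Lgals3, at means of 400.5 and 499.9 TPM against 7.45 and 24.6 TPM. Its call was lost without control replicate 2 or 3 or itaconate replicate 2 or 3, where the log2 fold change lay between 0.309 and 0.43, and with limma on log2(TPM + 1), at 0.318.

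Lgals3bp (ENSMUSG00000033880, chromosome 11, 118392751 to 118402092, minus strand, protein-coding) encodes the galectin-3-binding protein, a heavily glycosylated secreted protein that is known as interferon-inducible. Control replicates 1 to 3 held 80.4, 72.5 and 71.9 CPM, against 58.0, 53.5 and 59.8 CPM for itaconate replicates 1 to 3. Every itaconate library lay below every control library. The log2 fold change was -0.39 ± 0.065 (SE), a change of -23.8%. The RNAs of galectin-3 and of its binding protein differed in opposite directions, and Lgals1 and Lgals3bp by log2 fold changes of the same size and opposite sign.

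Lgals9 (ENSMUSG00000001123, chromosome 11, 78962974 to 78984946, minus strand, protein-coding) encodes galectin-9, a tandem-repeat galectin known as a ligand of the inhibitory receptor TIM-3. It stood at 83.1, 87.7 and 78.3 CPM in the control libraries and at 85.8, 91.0 and 93.9 CPM in the itaconate libraries, so the groups overlapped. The log2 fold change was 0.12 ± 0.059 (SE), and the fit did not call it. Lgals8 encodes galectin-8, a tandem-repeat galectin that binds sugars exposed on broken vesicles and recruits the autophagy machinery. Its CPM, in replicate order, were 9.87, 10.15 and 9.71 without itaconate and 9.75, 10.54 and 11.75 with it, which overlap, and the log2 fold change was 0.11 ± 0.11 (SE). Its sign turned to -0.0652 with offsets for effective length and to -0.106 with limma on log2(TPM + 1). Heatr1, which overlaps it, had a control mean of 221.6 ± 12.2 CPM and an itaconate mean of 195.7 ± 11.7 CPM (SD, n = 3), and its part in the Lgals8 counts was not tested.

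The tables also give the mean transcript length of each gene, weighted by the estimated abundance of its isoforms, a measure that does not enter CPM. For Lgals3bp it was, in replicate order, 2103, 2073 and 2020 bases without itaconate and 1898, 1948 and 1916 bases with it. Every itaconate library was below every control library, with a mean difference of -145 bases. An exact permutation test (two-sided, 3 against 3) gave p = 0.1, the smallest this design allows, and an adjusted p of 0.25 over the 5 genes. The groups were also apart for Lgals9, at 1520 ± 3.46 and 1524 ± 0.437 bases (exact permutation p = 0.1, adjusted p = 0.25), but not on effective length, at 1279 ± 18.2 and 1289 ± 3.86 bases (exact permutation p = 0.6, adjusted p = 0.875). For the other 3 genes they overlapped, with exact permutation p of 0.5 for Lgals3 and Lgals8 and 0.7 for Lgals1. Among all 10305 tested genes whose length varied, the groups did not overlap for 10.2%.

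Lgals3bp has 5 transcripts in the tables, all of them in GENCODE M21. The longest, Lgals3bp-201, has 2330 bases and spans the gene, and the other 4 have 335 to 798 bases and cover parts of it. If the mean lengths are taken at face value, the longest transcript made up between 85.2% and 88.6% of Lgals3bp transcripts in control replicate 1, with the range set by which shorter transcripts made up the rest. The same bounds were 83.2% to 87.1% and 79.7% to 84.4% in control replicates 2 and 3. They were 71.8% to 78.4%, 75.1% to 80.8% and 73.0% to 79.3% in itaconate replicates 1, 2 and 3. Isoform estimates carry an error that the tables do not give. With effective length as an offset, the Lgals3bp log2 fold change was -0.275 ± 0.0731 (SE) and the fit no longer called it, nor did limma on log2(TPM + 1). Its TPM values were still apart between the groups, at 48.8 to 55.3 and 36.5 to 43.1 TPM.

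Lgals8 had the least stable length. It was 1898, 1917 and 2495 bases in control and 1970, 2353 and 2625 bases in itaconate libraries, over 10 transcripts of 289 to 2843 bases. Control replicate 3 and itaconate replicates 2 and 3 were long and the other 3 libraries short, across the groups. The TPM of Lgals8 was low where its length was long, at 5.2, 5.81 and 5.85 against 6.95 to 7.64 TPM, as division by length makes it. Lgals1, by contrast, varied between 796.9 and 798.6 bases in all 6 libraries. With its transcripts of 800 and 628 bases, the shorter, annotated as a target of nonsense-mediated decay, would make up 0.8% to 1.8% of Lgals1 transcripts.

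**Figure D3:**
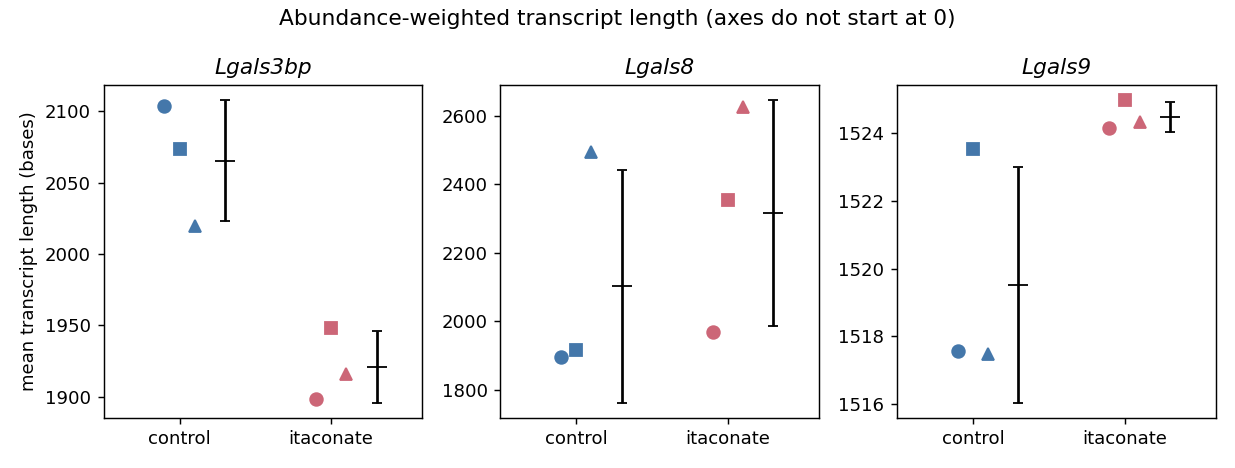
Mean transcript length in bases of Lgals3bp, Lgals8 and Lgals9 in each library (circle, square and triangle for replicates 1, 2 and 3; black bars, mean and SD of 3; axes do not start at 0 and differ between panels). Lgals3bp transcripts were shorter in all 3 itaconate libraries, Lgals8 varied within both groups, and the Lgals9 groups were about 5 bases apart.

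Genes around the galectins were taken from 6 lists written from general knowledge of galectin biology. Over all genes tested the median log2 fold change was 0.00592, and 12.0% were called, 6.68% higher and 5.36% lower. Of 7 other galectin family genes, 6 were matched in the tables and 3 could be tested, with Lgals6 not analysed here. Lgalsl, a galectin-related gene whose product is not known to bind galactose, went up with itaconate, from 7.33 ± 0.64 to 9.77 ± 0.5 CPM (SD, n = 3; log2 fold change 0.42 ± 0.12, edgeR adjusted p 0.0373). That call was lost without any 1 of the 6 libraries (edgeR adjusted p 0.0633 to 0.117) with DESeq2 (0.102), and with limma on log2(TPM + 1) (0.245). Lgals4, known from the intestine, stood at 3.23 ± 0.28 and 4.42 ± 0.99 CPM with overlap (adjusted p 0.176), and Lgals7, known from stratified epithelia, at 0.734 ± 0.092 and 0.776 ± 0.16 CPM (adjusted p 0.93). Per length, Lgals4 at 4.35 to 8.11 TPM over the 6 libraries overlapped Lgals8 at 5.2 to 7.64 TPM. Lgals2 had 0 counts in every library, which allows up to 0.0948 to 0.164 CPM (3 counts per library; counting error only). Lgals12 had 1 count in control replicate 2 and 1 in itaconate replicate 3, and Grifin, a lens galectin relative, 0.326 ± 0.12 and 0.3 ± 0.12 CPM.

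Surface glycoproteins known to bind galectins moved in both directions. Of 21 listed genes, 20 were tested, of which 4 rose, 7 fell and 9 did not pass, with a median log2 fold change of -0.0352. Among all genes tested, 6.68% rose and 5.36% fell. Selplg, the selectin ligand PSGL-1, went from 334 ± 6.7 to 409 ± 4.1 CPM (log2 fold change 0.29 ± 0.043 SE, edgeR adjusted p 0.000642). Thy1, a glycoprotein anchored by a lipid, increased from 1160 ± 35 to 1410 ± 9 CPM (0.28 ± 0.044, adjusted p 0.000999), a call lost with offsets for effective length (0.158). With limma on log2(TPM + 1), the adjusted p was 0.064 for Selplg and 0.187 for Thy1, and both calls were lost. Itgb1, the integrin beta-1 chain, fell from 218 ± 15 to 157 ± 8.3 CPM (-0.48 ± 0.057, adjusted p 0.000141). P4hb, a disulfide isomerase that galectin-9 retains at the cell surface, fell from 524 ± 32 to 407 ± 1.8 CPM (-0.37 ± 0.05, adjusted p 0.000407). The following 4 genes were picked after their values were seen. Ptprc, the phosphatase CD45 bound by galectin-1, fell from 916 ± 75 to 745 ± 27 CPM (adjusted p 0.00406), and Lag3, an inhibitory receptor bound by galectin-3, from 104 ± 3.3 to 81.6 ± 8.6 CPM (adjusted p 0.00417). Havcr2, which encodes TIM-3, was low, at 1.54 ± 0.65 and 2.9 ± 0.77 CPM (adjusted p 0.0752), and Pdcd1, the receptor PD-1, stood at 33 ± 1.8 and 28.1 ± 2.6 CPM (adjusted p 0.0712).

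**Figure D4:**
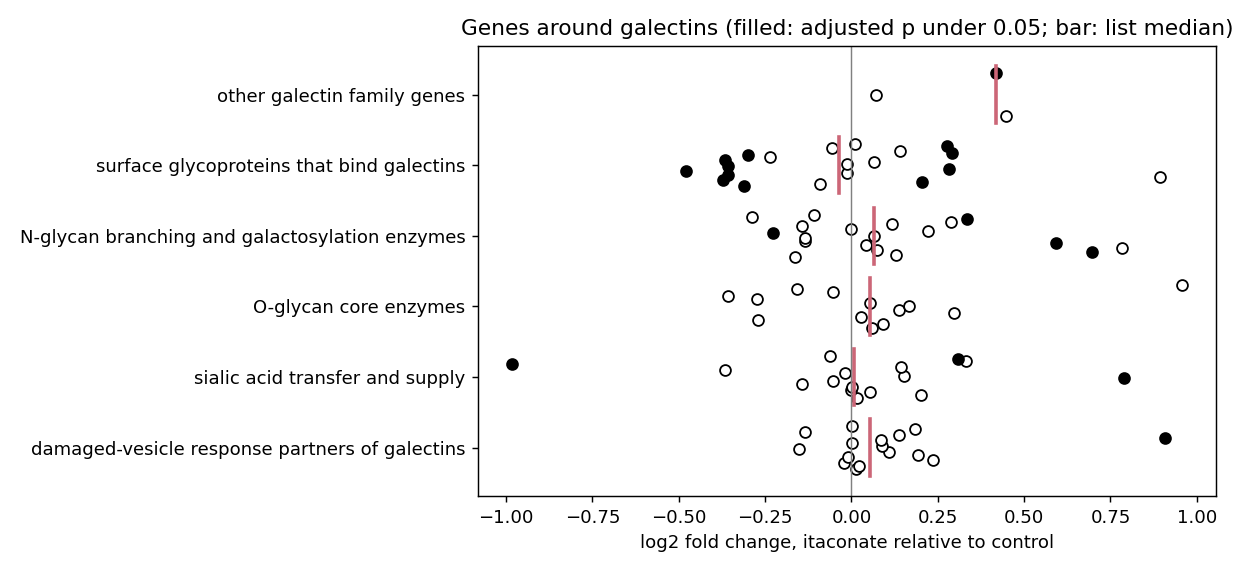
Log2 fold change (itaconate relative to control) of every tested gene in the 6 lists; filled points passed an edgeR adjusted p under 0.05 and red bars are list medians. Surface glycoproteins have filled points on both sides of 0, and St6gal1 is the lowest point, at -0.98.

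Galectins bind best to branched N-glycans that end in galactose, which enzymes of the Golgi build. Of 22 listed branching and galactosylation genes, 19 were tested, of which 3 rose, 1 fell and 15 did not pass (median log2 fold change 0.0652). The shares over all genes tested were 6.68% called higher and 5.36% called lower. Fut8, which adds the core fucose, was higher with itaconate, at 22.8 ± 2 CPM against 15.1 ± 1.8 CPM (0.59 ± 0.1, edgeR adjusted p 0.00235). B4galt2, a galactosyltransferase, rose from 4.53 ± 0.23 to 7.33 ± 1.2 CPM (0.70 ± 0.16, adjusted p 0.0105), a call lost without itaconate replicate 2 (edgeR adjusted p 0.0557) and with limma on log2(TPM + 1) (0.077). Man2a1, the mannosidase that opens the way to branching, fell from 78.6 ± 1.2 to 67.1 ± 3 CPM (-0.23 ± 0.056, adjusted p 0.0161), a call lost without control replicate 2 (0.0679) or itaconate replicate 2 (0.0772), with offsets for effective length (0.0646) and with limma on log2(TPM + 1) (0.135). Mgat5, the branching enzyme best known for making galectin-3 ligands and also picked after its value was seen, was at 20.9 ± 0.28 CPM in control and rose to 26.3 ± 2.6 CPM (0.33 ± 0.086, edgeR adjusted p 0.0215). The Mgat5 call was lost without control replicate 2 or itaconate replicate 3, with offsets for effective length and with limma on log2(TPM + 1). Of 14 O-glycan core genes, 13 were tested and 0 called by edgeR or DESeq2 (median 0.0546). Across all genes tested, edgeR called 12.0%, and DESeq2 called 1299 genes. An unadjusted edgeR p under 0.05 was reached by 6 of the 13. The share of all genes at that threshold is not given here, so nothing is read from the 6.

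Sialic acid linked to the 6 position of galactose blocks the binding of several galectins, and St6gal1 is the enzyme that adds it to N-glycans. St6gal1 fell, from 26.5 ± 2.6 CPM in control to 13.4 ± 0.23 CPM (-0.98 ± 0.093 on the log2 scale, edgeR adjusted p 2.05e-05), the largest change among the 16 tested genes of sialic acid transfer and supply. In that list 2 genes rose, 1 fell and 13 did not pass, with a median of 0.00872. Across all genes tested, 6.68% rose and 5.36% fell. St6galnac4, which sialylates O-glycans, rose from 164 ± 2.1 to 203 ± 11 CPM (0.31 ± 0.049, adjusted p 0.00114). St3gal2, which adds sialic acid at the 3 position, rose from 6.22 ± 0.62 to 10.8 ± 1.6 CPM (0.79 ± 0.14, adjusted p 0.00239). Both of these calls were lost with limma on log2(TPM + 1), at adjusted p of 0.144 for St6galnac4 and 0.0979 for St3gal2. Of 16 partners of galectins in the response to damaged vesicles, 1 rose and 15 did not pass (median 0.0539), beside 6.68% of all genes called higher. The riser was Trim16, a galectin-3 partner, from 1.69 ± 0.063 to 3.17 ± 0.41 CPM (0.91 ± 0.23, edgeR adjusted p 0.0202). Its call was lost without control replicate 2 (0.0681), control replicate 3 (0.0537) or itaconate replicate 2 (0.0851), and with offsets for effective length, where its log2 fold change was 0.484, and with limma on log2(TPM + 1) (0.478).

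Genes with the pattern most like each member over the 6 libraries were ranked by the root mean square difference in log2 CPM, each gene first set relative to its control mean. Libraries of both groups enter this measure, so a like difference between the groups weighs in it, and it is a description with no test. Nearest to Lgals3 were Fbln2, a matrix protein (difference 0.142; 4.08 ± 0.76 and 14.4 ± 1.1 CPM in control and itaconate libraries), AA467197 (0.206; 2.72 ± 0.46 and 8.96 ± 2.1 CPM) and She (0.238; 0.307 ± 0.07 and 1.15 ± 0.057 CPM). She was low enough in control that it passed the filter on low counts through the itaconate libraries. Nearest to Lgals3bp were Snx16, a sorting nexin (0.044), Tmem173, which encodes the DNA-sensing adaptor STING (0.0475; 130 ± 14 and 97.9 ± 4.4 CPM), and Etv6, a transcriptional repressor (0.0493). Nearest to Lgals1 were Spint2 (0.0327), a protease inhibitor, Angptl6 (0.0392) and Stradb (0.0416). Lgals8 had Cbfa2t2, Trappc3 and Parp3 as its nearest genes (0.0262 to 0.0282), and Lgals9 had Aunip, Mapkapk3 and Rab3ip (0.0216 to 0.0286). The nearest genes of Lgals3 were further from it than those of the other members, whose own differences between the groups were smaller.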

How the data were processed

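The authors deposited 1 gene table per library, with RSEM's column names. The deposited expected counts are reads assigned to each gene by the authors' estimate, with no normalisation. The deposited TPM add a correction for effective transcript length and 1 fixed total per library, per the file headers. The deposited FPKM values were not used. Bowtie 0.12.2 and the builds mm8 and mm10 are named, without a role, per the submitters' processing notes. The strand setting is not given in the sources used here. Expected counts were rounded and tested with edgeR 4.0.16 in R 4.3.3: TMM factors (0.9866 to 1.017), expression filter (minimum count 10, minimum total 15), quasi-likelihood test, two-sided, robust, Benjamini-Hochberg over 12350 genes, threshold 0.05. The fit was run on data simulated with the same dispersion for every gene, as a check of the code and not of its power on these libraries. Fold changes are fitted, with standard errors. Positions, transcripts and sequences came from GENCODE M21 (GRCm38), looked up by the identifiers in the tables. Exact permutation tests used scipy 1.17.1. Alternatives were RLE factors, library totals, other filters, DESeq2 1.42.0, limma 3.58.1 on log2 TPM, offsets for effective length, a replicate block, and each library left out. Members and lists were chosen with earlier results of these data known. Named genes were, by rule, the members, up to 2 risers and 2 fallers of each list with the smallest adjusted p, and the 3 genes nearest in pattern to each member. Left out of the nearest genes were predicted Gm, Rik and pseudogene names, clone names that start with AC, AL, BC, CT, AI or AW, and genes at 0 in any library. Clone names that start with AA were kept. All others named, including the other galectin family genes, single marker genes, Heatr1 and the pseudogenes, fall outside this rule and were chosen after their values were seen. Marker lists not named in the report (CD4, gamma-delta, NK, dendritic, B cells, neutrophils, stroma) are in the closing section.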

Additional observations from a re-analysis of the deposited data

How the results depend on the processing

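The Lgals3 log2 fold change lay between 1.61 and 1.87 without any 1 library and no other setting turned its sign or ended its call. Without 1 library, log2 fold changes were 0.309 to 0.465 for Lgals1, -0.431 to -0.34 for Lgals3bp, 0.0336 to 0.174 for Lgals8 and 0.0718 to 0.157 for Lgals9. Members called numbered 1 to 2 higher and 1 lower, and genes called in all 726 to 1400, with 726 without control replicate 2, 896 without itaconate replicate 2 and 835 without itaconate replicate 3. List calls were then 0 for other galectin genes, 8 to 11 for surface glycoproteins, 2 to 5 for N-glycan, 0 to 1 for O-glycan, 3 to 4 for sialic acid and 0 to 2 for vesicle response genes. Length differences were -0.717 to 0.153 bases for Lgals1, -27.8 to 4.76 for Lgals3, -167 to -126 for Lgals3bp, 58.2 to 409 for Lgals8 and 3.92 to 6.95 for Lgals9, with the sign turned for Lgals1 without itaconate replicate 1 (0.153) and for Lgals3 without itaconate replicate 2 (4.76). On effective length the Lgals1 difference was 4.4 bases.

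With offsets for effective length 567 genes were called, 0 members lower, and 7 surface glycoprotein, 2 N-glycan, 0 vesicle response and 0 other galectin genes; log2 fold changes were -0.275 for Lgals3bp and -0.0652 for Lgals8. With limma on log2(TPM + 1), 305 genes were called, 1 member higher and 0 lower, and 4 surface glycoprotein, 1 N-glycan, 1 sialic acid, 0 vesicle response and 0 other galectin genes, with Lgals8 at -0.106 and Lgals9 at 0.0476. With limma on log2(TPM + 0.1), 304 genes were called, 1 member higher and 0 lower, the lists gave the same counts (4, 1, 1, 0 and 0), and Lgals8 stood at -0.118. Without a filter on low counts 2 O-glycan and 2 vesicle response genes were called, and 0 vesicle response genes when genes under a mean of 5 CPM were left out. Other galectin genes called were 0 with DESeq2 and with library totals only. The cause of these shifts was not tested.

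Same-numbered libraries correlated in their deviations from the group means at 0.113, 0.0305 and 0.00337, and 0.113 was the highest value of any pair. Control replicates 1 and 2 correlated best with the itaconate library of their own number, and control replicate 3 with itaconate replicate 2 (0.0664). All values were low and the labels state no pairing, so the numbers were not taken to pair the libraries. With a replicate block 2419 genes were called, against 1487 without it, with 8 N-glycan, 2 O-glycan and 3 vesicle response genes among the 2419. Depth limits what can be said of Lgals2 and Lgals12, with 0 or 1 count per library, and of Grifin, with 3 to 13.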

Other observations

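Markers of other cells were compared between the groups beside the galectin genes. NK cell markers summed to 55.5 to 56.3 CPM in control and 42.5 to 49.4 CPM in itaconate libraries, nearly all of it Klrk1, a receptor that activated CD8 T cells also carry (55.7 CPM in control and 45.6 CPM in itaconate libraries on average, edgeR adjusted p 0.0113). Ncr1, a defining NK cell gene, was at 0.0601 and 0.141 CPM. B cell markers summed to 11.9 to 18.5 CPM and 9.996 to 21.5 CPM, dendritic cell markers to 1.84 to 3.14 and 1.89 to 3.6 CPM, and CD4 T cell markers to 5.64 to 9.49 and 7.44 to 10.8 CPM. Neutrophil markers summed to 0 to 1.35 and 0.0555 to 2.92 CPM, gamma-delta T cell markers to 1.3 to 1.71 and 1.39 to 1.73 CPM, and stromal and epithelial markers to 27.1 to 30.5 and 24.9 to 27.3 CPM. Most of the last sum was Pecam1, at 23.2 to 26.7 and 20.5 to 22.1 CPM (edgeR adjusted p 0.0657), and Epcam stood at 2.86 to 3.67 and 4.11 to 5.06 CPM (edgeR adjusted p 0.0598). Each was apart between the groups, in opposite directions, as were 31.2% of all genes tested, and neither was called. The stromal genes Col1a1, Col1a2 and Pdgfrb averaged 0.167, 0.099 and 0.136 CPM in control and 0.178, 0.0825 and 0.0757 CPM in itaconate libraries. The sums of these 6 lists overlapped between the groups.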
